A study of Mus musculus with 9 samples.

Results

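The 10 genes described here encode cytosolic and small heat shock proteins, a J-domain partner and the main heat shock factor: Hspa8, Dnajb1, Hsp90aa1, Hsp90ab1, Hspb1, Cryab, Hspb6, Hspb7, Hspb8 and Hsf1. They were chosen by name, and every probe on the array whose accession maps to one of these symbols was taken. That gave 16 probes out of 41174 that are not controls, 2 probes for each of 6 genes and 1 for each of the other 4. All 10 genes were among the 27773 genes that passed the filter on dim probes, and each of the 16 probes was well above background on every array where its spot was kept.

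Heart RNA came from male mice labelled C57BL/6, aged 3 to 4 months, on a normal diet and without treatment. The 5 wild-type (WT) mice were compared with 4 RORasg/sg mice. These carry staggerer, a deletion inside Rora, on both copies. Rora encodes RORalpha, a nuclear receptor, and the mutation is present in every cell of the body and not in the heart alone. Each heart was read on 1 single-colour Agilent array, and the study dealt with RORalpha in cardiac hypertrophy.

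Heat shock proteins bind unfolded or damaged proteins and help them to refold, or pass them on for degradation. Members of the HSP70 family (here Hspa8) hold short unfolded stretches with the help of J-domain proteins such as Dnajb1, and HSP90 chaperones complete the folding of kinases, steroid receptors and other clients. Small heat shock proteins form oligomers that hold unfolding proteins without using ATP. Several of them are abundant in heart muscle, where they protect desmin, filamin and other parts of the sarcomere, and Hsf1 switches on many chaperone genes after heat or other stress.

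A level is given below as log2 of the processed signal minus the 75th percentile of the same array, so that 0 is that percentile and 1 unit is a factor of 2. A difference is the RORasg/sg mean minus the WT mean on this scale. Rora itself (probe A_51_P477779) read 1.51 to 3.29 in WT and -2.71 to 0.083 in RORasg/sg hearts, which did not overlap, a difference of -4.13 (SE 0.610, limma adjusted p = 0.224). The 75th percentile of signal was 436 to 684 in WT arrays and 264 to 773 in RORasg/sg arrays. It was under 500 in WT 4 and in RORasg/sg 2, 3 and 4, which are called the dimmer arrays. RORasg/sg 1 is therefore the one RORasg/sg heart among the brighter arrays, and the 10 genes, the gene lists and the marker lists are given below with and without it. The median difference of all genes was 0.41, against which the values of single genes are to be read. It was 0.30 with quantile normalization and -0.17 without scaling between arrays. The WT means of the 10 genes ran from 1.77 (Hsf1) to 6.79 (Cryab), above the 75th percentile of the array. All genes include many dimmer ones, and the medians and shares of all genes below were not matched for signal level.

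No heat shock gene passed the test. By limma over all genes, 0 of the 10 genes had an adjusted p under 0.05 (0.404 to 0.800), against 0.0036% of all genes, and 0 of the 16 probes, against 0.00275% of all probes. At an unadjusted p under 0.05, 4 genes were lower and 0 higher, where 6.62% of all genes were lower and 4.94% higher. Those 4 were Hspb7, Cryab, Hspa8 and Hsp90ab1. The 95% intervals below are likewise not adjusted for the number of genes, and those of these 4 genes leave out 0. The mean was lower in RORasg/sg hearts for 8 of the 10 genes, against 33.4% of all genes, and 9 of the 10 lay below the median of all genes. In several other chaperone lists, too, most genes lay below the median of all genes, as given below. Without scaling between arrays all 10 means were lower and 9 again lay below that median. The median difference of the 10 genes was -1.23. The groups overlapped in all 10 genes and on all 16 probes. Over all genes, 1.71% had every RORasg/sg value below all WT values and 1.12% above, and over all probes these shares were 1.83% and 1.23%.

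**Figure D1:**
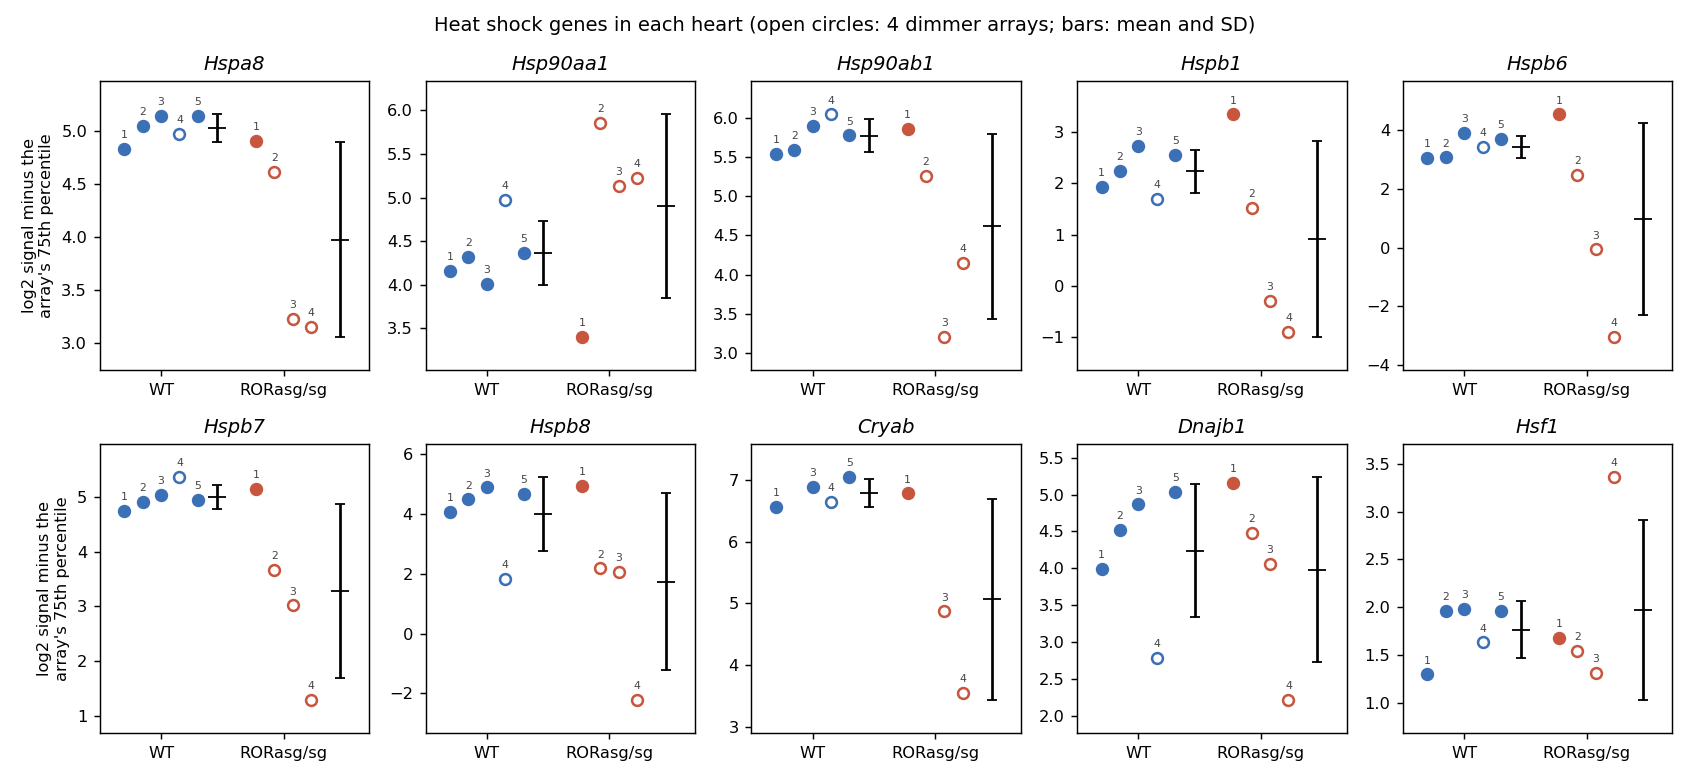
Level of each of the 10 genes in every heart, as log2 signal minus the 75th percentile of the array, with the heart's number beside its point. Each panel has its own vertical scale, filled circles are brighter and open circles dimmer arrays, and the bars give the group mean and SD. RORasg/sg 1 lies among or above the WT hearts except for Hsp90aa1, while RORasg/sg 3 and 4 are the lowest hearts for 6 genes.

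The RORasg/sg hearts differed among themselves more than the WT hearts did. The SD of a gene lay between 0.130 and 1.24 in WT and between 0.918 and 3.27 in RORasg/sg hearts, and it was larger in RORasg/sg for 10 of 10 genes, as for 86.1% of all genes. RORasg/sg 3 and 4 both lay below every WT heart in 6 of the 10 genes (Hspa8, Hsp90ab1, Hspb1, Cryab, Hspb6 and Hspb7), against 13.4% of all genes. RORasg/sg 2 was also below every WT heart in 5 of these 6 and has no value for Cryab, where 7.72% of all genes had their measured values of RORasg/sg 2, 3 and 4 below every WT heart. RORasg/sg 1 lay above every WT heart in 4 of the 10 genes (Hspb1, Hspb6, Hspb8 and Dnajb1), against 12.6% of all genes.

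Hspa8 encodes HSC70, the HSP70 chaperone that cells make without stress and that also uncoats clathrin vesicles. Its probe A_51_P170371 read 4.84, 5.05, 5.14, 4.98 and 5.15 in WT 1 to 5, and 4.91, 4.62, 3.23 and 3.15 in RORasg/sg 1 to 4. The WT hearts lay close together, RORasg/sg 1 fell within their range and the other 3 below it. The means were 5.03 ± 0.130 (SD, n = 5) and 3.98 ± 0.918 (SD, n = 4), a difference of -1.05 (SE 0.409, 95% interval -1.94 to -0.16, limma adjusted p = 0.418). The second probe, A_52_P12877, read 4.01, 3.83, 4.43, 3.81 and 4.05 in WT hearts and 5.05, 1.74, -2.08 and -0.54 in RORasg/sg hearts. Both probes put RORasg/sg 2, 3 and 4 below every WT heart, but the second by much more. Against its WT mean RORasg/sg 3 was 69.0-fold lower on the second probe and 3.49-fold lower on the first. The second probe put RORasg/sg 1 above every WT heart, and its difference between groups was -2.98 (SE 1.10).

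Dnajb1 encodes HSP40, which hands substrates to HSP70 and speeds up its ATPase. On probe A_51_P153486 the WT hearts read 3.99, 4.52, 4.87, 2.79 and 5.04, and the RORasg/sg hearts 5.16, 4.48, 4.06 and 2.22. The groups overlapped widely, the lowest WT heart was the dimmer WT 4, and the difference was -0.26 (SE 0.615, 95% interval -1.60 to 1.08). Its other probe, A_52_P171663, leaned the other way, by 0.93 (SE 0.499), with -2.92, -4.07, -3.03, -3.41 and -3.10 in WT hearts and -2.33, -3.60, -1.41 and -2.17 in RORasg/sg hearts. The 2 probes of this gene thus did not give the same direction.

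The means of the HSP90 pair lay on opposite sides of 0, and neither gene passed the test. Hsp90aa1 is the more stress-inducible and Hsp90ab1 the more constitutive of the cytosolic HSP90 proteins. Hsp90aa1 (A_51_P290231) read 4.16, 4.32, 4.01, 4.97 and 4.37 in WT and 3.40, 5.86, 5.13 and 5.22 in RORasg/sg hearts. RORasg/sg 2, 3 and 4 lay above every WT heart and RORasg/sg 1 below every one, and the dimmer WT 4 was the highest WT heart. The difference was 0.54 (SE 0.462, 95% interval -0.47 to 1.54, limma adjusted p = 0.495), close to the median of all genes. It was -0.035 without scaling between arrays.

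Hsp90ab1 (A_51_P485043) read 5.54, 5.59, 5.90, 6.05 and 5.78 in WT and 5.86, 5.26, 3.21 and 4.15 in RORasg/sg hearts. RORasg/sg 1 lay within the WT range and the others below it, with a difference of -1.15 (SE 0.470, 95% interval -2.18 to -0.13, limma adjusted p = 0.418). On its second probe, A_52_P257204, the WT hearts read 0.37, 0.03, 0.56, -0.69 and 0.38, and the RORasg/sg hearts 1.57, -3.23, -4.22 and -3.17. On both probes RORasg/sg 2, 3 and 4 lay below every WT heart, but WT 4 was the highest heart on the first and the lowest WT heart on the second, where RORasg/sg 1 was above every WT heart. RORasg/sg 2, 3 and 4 were 10.3, 20.4 and 9.89-fold below the WT mean on this probe, against 1.43, 5.91 and 3.08-fold on the first. The difference between Hsp90aa1 and Hsp90ab1 was not tested.

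Each of the 5 small heat shock genes had a lower mean in RORasg/sg hearts, and none passed the test. Hspb1 encodes HSP25, the mouse counterpart of human HSP27, which binds actin filaments. It read 1.94, 2.25, 2.73, 1.71 and 2.56 in WT and 3.34, 1.52, -0.29 and -0.89 in RORasg/sg hearts. RORasg/sg 1 was the highest of all 9 hearts and RORasg/sg 2, 3 and 4 the lowest, and the difference was -1.31 (SE 0.750, 95% interval -2.95 to 0.32).

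Hspb6, or HSP20, is a target of cyclic nucleotide kinases in muscle. It showed the widest spread of the 10 genes, with 3.05, 3.07, 3.90, 3.42 and 3.71 in WT and 4.53, 2.48, -0.06 and -3.03 in RORasg/sg hearts. Here too RORasg/sg 1 was above and the other 3 below every WT heart, RORasg/sg 4 by 88.2-fold against the WT mean. The means were 3.43 ± 0.380 (SD, n = 5) and 0.98 ± 3.27 (SD, n = 4), and the difference of -2.45 (SE 1.16, limma adjusted p = 0.418) has a 95% interval of -4.97 to 0.067.

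Hspb8, or HSP22, works with the co-chaperone Bag3 in the selective autophagy of damaged proteins. It read 4.06, 4.48, 4.88, 1.83 and 4.67 in WT and 4.93, 2.17, 2.04 and -2.21 in RORasg/sg hearts. The low WT heart was the dimmer WT 4, which lay below RORasg/sg 2 and 3, so that the 4 low hearts were the 4 dimmer arrays. The difference was -2.25 (SE 1.14, 95% interval -4.73 to 0.24). WT 4 was the lowest WT heart for 3 of the 10 genes (Hspb8, Hspb1 and Dnajb1), against 27.9% of all genes.

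Hspb7, or cvHSP, is made mainly in heart and skeletal muscle and binds filamin C. Its probe A_51_P346445 has 10 spots on each array, which gives the spread between spots of one hybridisation. After spots flagged as outliers were left out, 8 to 10 spots remained on each array, and their SD was 0.0649 to 0.111. The array means were 4.75, 4.91, 5.03, 5.36 and 4.94 in WT and 5.15, 3.66, 3.02 and 1.30 in RORasg/sg hearts. The SD between hearts was 0.227 in WT (n = 5) and 1.60 in RORasg/sg (n = 4). The spot SD leaves out amplification and labelling, which all spots of an array share. RORasg/sg 1 lay within the WT range and the other 3 below it. The difference was -1.72 (SE 0.609, 95% interval -3.04 to -0.39, limma adjusted p = 0.404).

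The other probe of Hspb7, A_51_P447874, gave a smaller contrast. It read 3.86, 3.76, 4.19, 4.48 and 4.33 in WT and 4.63, 4.56, 3.42 and 2.81 in RORasg/sg hearts, a difference of -0.27 (SE 0.427). RORasg/sg 2 lay above every WT heart on this probe and below every WT heart on the first.

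Cryab encodes alphaB-crystallin, which protects desmin filaments and whose mutation causes desmin-related cardiomyopathy. Its probe A_52_P106482 read 6.56, 6.90, 6.65 and 7.05 in WT 1, 3, 4 and 5, and 6.79, 4.87 and 3.55 in RORasg/sg 1, 3 and 4. The spots of WT 2 and RORasg/sg 2 carried an outlier flag and were left out, so the difference of -1.72 (SE 0.623, 95% interval -3.11 to -0.33, limma adjusted p = 0.412) rests on 4 WT and 3 RORasg/sg hearts. RORasg/sg 1 was in the middle of the WT values, and RORasg/sg 3 and 4 were 3.78 and 9.47-fold below the WT mean. The second probe, A_51_P504423, read 0.39, 0.17, 0.72, 1.02 and 0.69 in WT and 1.61, 0.49, -0.52 and -0.66 in RORasg/sg hearts, a difference of -0.37 (SE 0.528). RORasg/sg 3 and 4 were again the lowest hearts, by 2.18 and 2.40-fold. Cryab lies on chromosome 9, as Hspa8 and Rora do. In the GRCm38.p6 annotation its span overlaps that of Hspb2, another small heat shock gene of muscle. Hspb2, chosen after its values were seen, differed by 0.45 (SE 0.420) with 4.11, 4.39, 4.27, 5.50 and 4.45 in WT and 3.87, 5.52, 5.33 and 5.26 in RORasg/sg hearts. It thus had no low values in RORasg/sg 3 and 4, where Cryab did, and the difference between these genes was not tested.

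The promoters of these genes are shown because heat shock factors bind inverted GAA repeats there. A link between such repeats and the levels in these hearts was not tested. RefSeq promoter windows of 300 bases (250 before and 50 after a start, build GRCm38.p6) were at hand for 5 of the 10 genes, 7 windows in all: Hspb1, Hspb6, Hspb7, Hspb8 and Dnajb1. The letters GAANNTTC or TTCNNGAA each read the same on both strands. They were found in 3 of the 7 windows, those of 3 genes, Hspb1, Hspb6 and Hspb8, and in 15.1% of 32851 promoter windows of all genes. TAGGTCA, the core of a ROR response element, was searched on both strands and was in 0 of the 7 windows and in 2.61% of all windows. The 250 bases before the start of Hspb1 hold GAANNTTC at 2 places, in capitals here (chr5:135887669-135887918, plus strand, GRCm38.p6).
Hspb1: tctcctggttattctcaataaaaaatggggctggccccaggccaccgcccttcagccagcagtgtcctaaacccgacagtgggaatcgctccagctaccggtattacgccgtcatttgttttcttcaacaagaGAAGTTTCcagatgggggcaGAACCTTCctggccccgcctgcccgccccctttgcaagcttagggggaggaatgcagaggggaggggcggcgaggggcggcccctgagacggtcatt

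The matches of the other genes are given as stretches of 30 bases with the match in capitals. The stretch of Hspb6 lies at chr7:30553170-30553199 on the plus strand, before the second of its annotated starts. That of Hspb8 lies at chr5:116422844-116422873 on the minus strand and begins its match at base 3 after the start. GAAGTTTC stands in all 3 genes, and these matches are a description of the letters and not of bound sites.
Hspb6: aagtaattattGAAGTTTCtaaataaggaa
Hspb8: agaagccaggaGAAGTTTCtaggctcgcga

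The windows of Hspb7 and Dnajb1 hold none of these letters.

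Hsf1, the transcription factor of the heat shock response, had overlapping groups, as the other genes did. Its mean difference was smaller than the SD of the RORasg/sg hearts, as in every gene but Hspa8, Hspb7 and Cryab. Probe A_52_P647582 read 1.30, 1.96, 1.99, 1.64 and 1.96 in WT and 1.68, 1.55, 1.31 and 3.36 in RORasg/sg hearts. RORasg/sg 4 stood above all other hearts and the remaining 3 lay within the WT range. The difference was 0.21 (SE 0.483, 95% interval -0.85 to 1.26, limma adjusted p = 0.797). The other probe, A_51_P102943, read -4.15, -3.84, -3.07, -5.22 and -3.01 in WT and -3.18, -2.58, -5.14 and -1.20 in RORasg/sg hearts, a difference of 0.84 (SE 0.748). RORasg/sg 4 was again the highest heart on this probe.

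**Figure D2:**
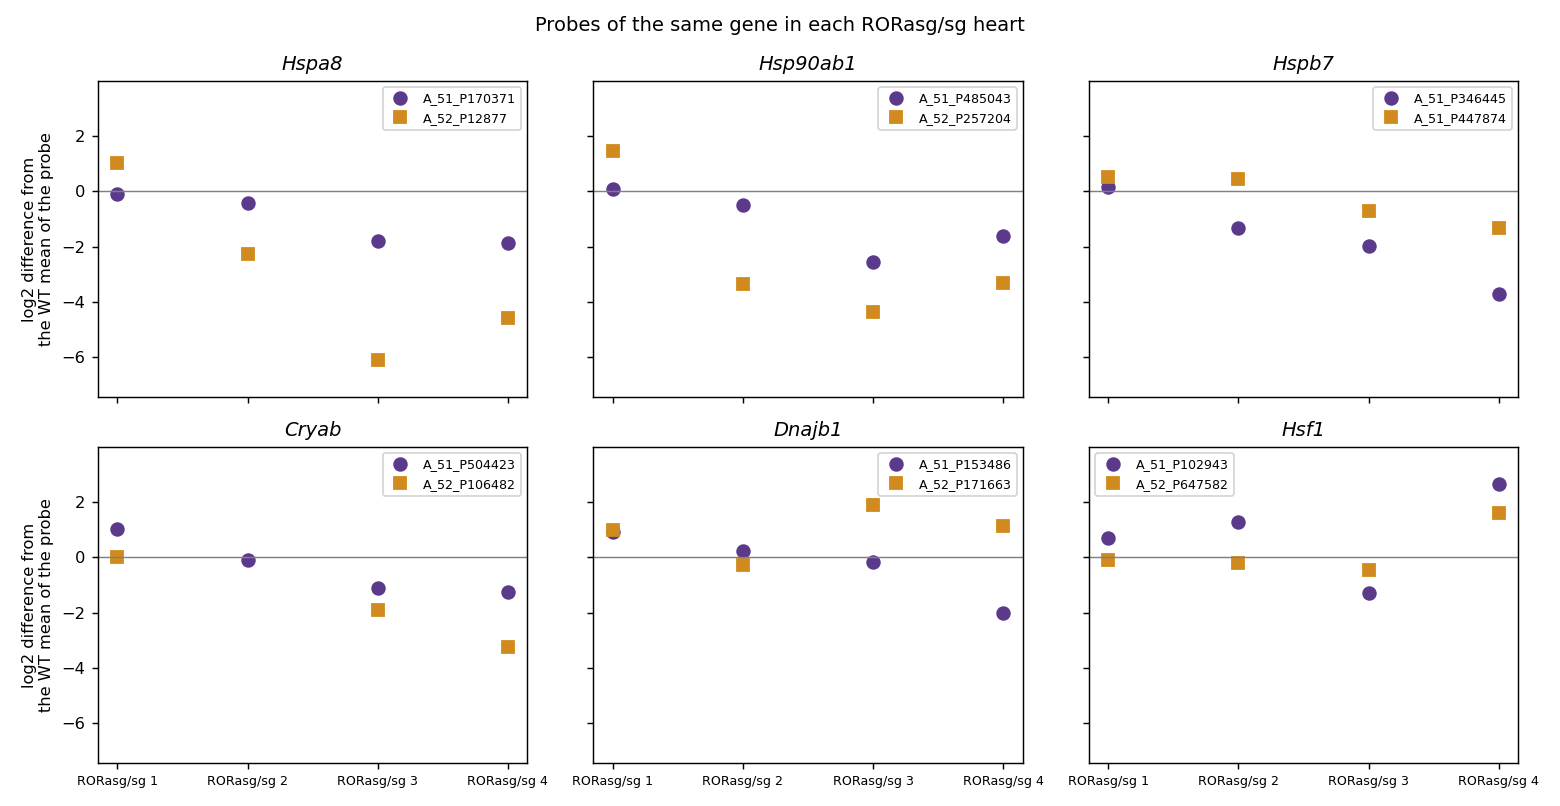
Log2 difference of each RORasg/sg heart from the WT mean of the same probe, for the 6 genes with 2 probes, on a common vertical scale. In RORasg/sg 3 the probes of Hspa8 stood at -1.80 and -6.11 and those of Hsp90ab1 at -2.56 and -4.35, while those of Dnajb1 lay on opposite sides of 0. Cryab probe A_52_P106482 has no value in RORasg/sg 2.

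The size of a difference therefore depended on the probe in all 6 genes with 2 probes. Over the 16 probes, 12 had a lower and 4 a higher mean in RORasg/sg hearts, where 38.3% of all probes had a lower one. At an unadjusted p under 0.05, 6 of the 16 were lower and 0 higher, against 8.27% and 4.51% of all probes. Differences between the probes of a gene were not tested, and the positions of the probes along their transcripts were not used here.

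The hearts entering the fit decided whether these genes were called. Without RORasg/sg 1, limma called 7 of the 10 genes lower, where 8.89% of all genes were called lower, and 1 higher (Hsp90aa1), where 28.5% of all genes were called higher. In that fit Cryab differed by -2.58 (adjusted p = 0.00724), Hspb7 by -2.34 (0.0118), Hspa8 by -1.36 (0.0196), Hsp90ab1 by -1.57 (0.0203) and Hspb1 by -2.12 (0.0205). Hspb6 differed by -3.63 (adjusted p = 0.0243), Hspb8 by -3.31 (0.0381) and Hsp90aa1 by 1.04 (0.0245), while Dnajb1 and Hsf1 were not called. At the level of probes, 9 of the 16 were called lower in that fit, against 11.5% of all probes, and 1 higher, against 23.5%. The 3 RORasg/sg hearts left are all dimmer arrays and 4 of the 5 WT hearts are brighter ones, so genotype and brightness largely coincide there. With all 9 arrays weighted by their agreement with the fit, the same 8 genes were called, 7 lower (16.7% of all genes) and 1 higher (37.8%). That fit gave RORasg/sg 1 the lowest weight of all arrays, 0.101, so it comes close to leaving this heart out. RORasg/sg 2, 3 and 4 had weights of 0.332, 1.685 and 0.528, so the mutant mean rested mostly on RORasg/sg 3. The dimmer WT 4 had a weight of 0.325, against 2.60 to 4.54 in the other WT hearts.

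Array brightness was also entered as a covariate over all 9 hearts, where it partly coincides with genotype, so that their parts cannot be told apart. In that fit 0 of the 10 genes and 1 of all 27773 genes were called. The median difference of the 10 genes shrank to -0.47, that of all genes being 0.010. Hspb8 then stood at -0.20, Hspb1 at -0.21, Hspb6 at -0.79, Hspb7 at -0.86 and Cryab at -1.04, and Hsp90aa1, Dnajb1 and Hsf1 changed sign. Hspa8 (-0.69) and Hsp90ab1 (-0.81) moved less. Single mutant hearts also carried much of the size. Without RORasg/sg 4, Hspb6 stood at -1.11, Hspb7 at -1.06, Cryab at -0.96, Hspb8 at -0.93 and Hspb1 at -0.71. Without RORasg/sg 3, Hsp90ab1 stood at -0.68, and without RORasg/sg 2, Hsp90aa1 stood at 0.22.

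In the 5 brighter arrays, with RORasg/sg 1 as the lone heart of its group, 0 of the 10 genes were called, against 2.99% of all genes lower and 1.29% higher. That fit assumes that the lone heart varies like the WT hearts. Hspb6 stood at 1.10, Hspb1 at 0.98, Dnajb1 at 0.56, Hspb8 at 0.41, Hspb7 at 0.24, Hsp90ab1 at 0.16, Cryab at -0.051, Hsf1 at -0.12, Hspa8 at -0.13 and Hsp90aa1 at -0.81. The signs of 8 of these differ from those over all 9 hearts. The same contrast appeared between slides. Within slide 1 (WT 1 and 2, RORasg/sg 1 and 2) the median difference of the 10 genes was 0.11 and that of all genes 0.058, and within slide 2 (WT 3 and 4, RORasg/sg 3 and 4) they were -2.43 and 0.67. With slide as a block they were -1.19 and 0.37, and 0 of the 10 genes were called.

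**Figure D3:**
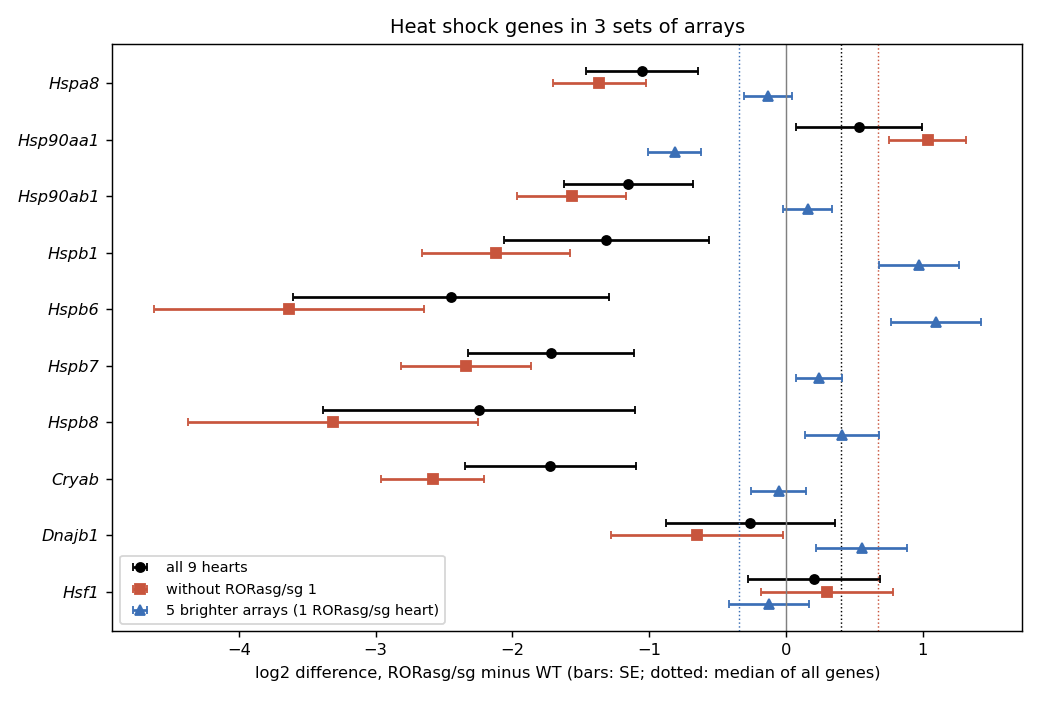
Log2 difference (RORasg/sg minus WT) of each gene with its SE over all 9 hearts, without RORasg/sg 1 and in the 5 brighter arrays, with the median of all genes in the same fit as a dotted line. Without RORasg/sg 1, 8 genes passed the limma threshold, and in the brighter arrays, where 1 RORasg/sg heart is left, the values of Hspb1 and Hspb6 turn to 0.98 and 1.10.

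Other chaperone genes were read from lists. None of their members passed over all genes in any of the 9 lists, and each count below is that of measured genes. Over all genes, 33.4% had a lower mean. Below the median of all genes lay 9 of 10 HSP70 co-chaperones, 9 of 10 mitochondrial chaperones and 13 of 14 TRiC and prefoldin subunits. So did 9 of 11 J-domain genes, 13 of 17 HSP90 co-chaperones, 7 of 11 HSP70 and HSP110 genes and 8 of 12 muscle partners. Of heat shock factors and regulators 5 of 11 did, and of the other small heat shock genes 1 of 5. The probes of Bag4, Dnajc7 and Hdac6 exceeded background on all WT arrays but on 3 of the 4 mutant arrays. Of 10 HSP70 co-chaperones, 1 had a higher and 9 a lower mean (median -0.77). Bag1, a nucleotide exchange factor, differed by -3.01 (SE 0.873), Stip1, the HOP adaptor between HSP70 and HSP90, by -2.13 (SE 0.740), and Bag4 by -1.78 (SE 0.558). Bag1 read 4.25 in RORasg/sg 1, within the WT range of 3.71 to 4.32, and 1.61, -0.44 and -1.08 in the others. Bag3, the partner of Hspb8 and chosen after its values were seen, differed by -0.22 (SE 0.297), with 4.71 to 5.50 in WT and 4.51 to 5.17 in RORasg/sg hearts.

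Of 11 cytosolic J-domain genes, 4 were higher and 7 lower (median -0.59). Dnajc7 differed by -3.60 (SE 1.25), Dnaja1, a farnesylated HSP40, by -2.29 (SE 0.9998) and Dnajc9, a histone co-chaperone, by 0.67 (SE 0.402). The remaining probes of Dnaja1 differed by -0.22 and -0.43, and that of Dnajc9 by -2.44. Of 14 subunits of the chaperonin TRiC, which folds actin and tubulin, and of prefoldin, 2 were higher and 12 lower (median -0.77), with Cct8 at -2.00 (SE 0.711), Pfdn1 at -1.61 (SE 0.629) and Pfdn2 at -1.59 (SE 0.741). In the dimmer WT 4 the median deviation from the WT mean was -0.95 for this list and -1.02 for the J-domain genes.

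Of 17 HSP90 co-chaperones, 7 were higher and 10 lower (median -0.55). Cdc37l1 differed by -1.33 (SE 0.544), Tsc1 by -1.13 (SE 0.488) and Chordc1 by -1.59 (SE 0.689). The remaining probes of Tsc1 leaned the other way, at 0.23 and 0.27, while those of Cdc37l1 and Chordc1 stood at -2.80 and -2.94. Of 10 mitochondrial chaperones, 4 were higher and 6 lower (median -0.071), with Dnaja3 at 0.64 (SE 0.475), Grpel1 at -0.34 (SE 0.375) and Hspa9, or mortalin, at -0.40 (SE 0.549). The second probe of Dnaja3 stood at -1.83.

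The medians of the other lists lay between -0.15 and 0.80. Of 11 further HSP70 and HSP110 genes, 7 were higher and 4 lower (median 0.062). Hspa1l differed by -2.48 (SE 0.898) and its groups did not overlap, with 1.97 to 2.60 in WT and -3.87 to 1.43 in RORasg/sg hearts. Hspa4 differed by 0.74 (SE 0.501), with -1.13 and -1.40 on its other probes. Hspa1b, a stress-inducible HSP70, differed by 1.38 (SE 0.825) and its near-identical copy Hspa1a, chosen after its values were seen, by -0.35 (SE 0.518), and reads of these copies may be mixed on the array. Of the 5 other small heat shock genes, 5 were higher (median 0.80). Cryaa, the lens alpha-crystallin, stood at 1.07 (SE 0.637), Hspb9 at 0.93 (SE 0.646) and Odf1, a protein of sperm tails, at 0.80 (SE 0.490). The levels of these genes were low, with WT means of -1.80, -2.44 and -3.36. The other probe of Cryaa stood at 0.005 and that of Odf1 at 0.76.

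Of 11 heat shock factors and their regulators, 9 were higher and 2 lower (median 0.58), with the deacetylase Hdac6 at -2.52 (SE 0.706), Hsf2 at -0.96 (SE 0.469) and Hsbp1l1 at 1.11 (SE 0.621). Of 12 muscle partners and clients of small heat shock proteins, 5 were higher and 7 lower (median -0.15). The intermediate filament genes went apart, with Des, of muscle, at -2.23 (SE 1.09) and Vim, of mesenchymal cells, at 1.18 (SE 0.417), and Actn2, of the Z-disc, stood at -2.21 (SE 1.15). Des read 4.58 in RORasg/sg 1 and 2.69, -1.17 and -0.99 in the others, against 1.57 in WT 4 and 3.85 to 4.18 in the remaining WT hearts.

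Leaving out RORasg/sg 1 gave calls in 8 of these 9 lists, against 8.89% of all genes called lower and 28.5% higher. The counts were 5 lower and 1 higher of 14 for TRiC and prefoldin, 3 lower and 1 higher of 10 for HSP70 co-chaperones, 2 lower and 1 higher of 11 for J-domain genes, and 2 lower and 3 higher of 17 for HSP90 co-chaperones. They were 2 lower and 4 higher of 11 for heat shock factors and regulators, 2 lower and 2 higher of 12 for muscle partners, 3 higher of 11 for HSP70 and HSP110 genes, and 3 higher of 5 for the other small heat shock genes (Cryaa, Hspb9 and Odf1). For mitochondrial chaperones 0 of 10 were called. In the brighter arrays, against 2.99% of all genes lower and 1.29% higher, each list had at most 1 call in each direction. There the median of the other small heat shock genes turned to -0.75, with 1 of 5 called lower, that of HSP70 and HSP110 genes to -0.72 and that of heat shock factors and regulators to -0.17. The median of TRiC and prefoldin turned to 0.24, that of muscle partners to 0.15, that of mitochondrial chaperones to 0.085 and that of J-domain genes to 0.004, while the medians of HSP70 and HSP90 co-chaperones were -0.13 and -0.36.

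**Figure D4:**
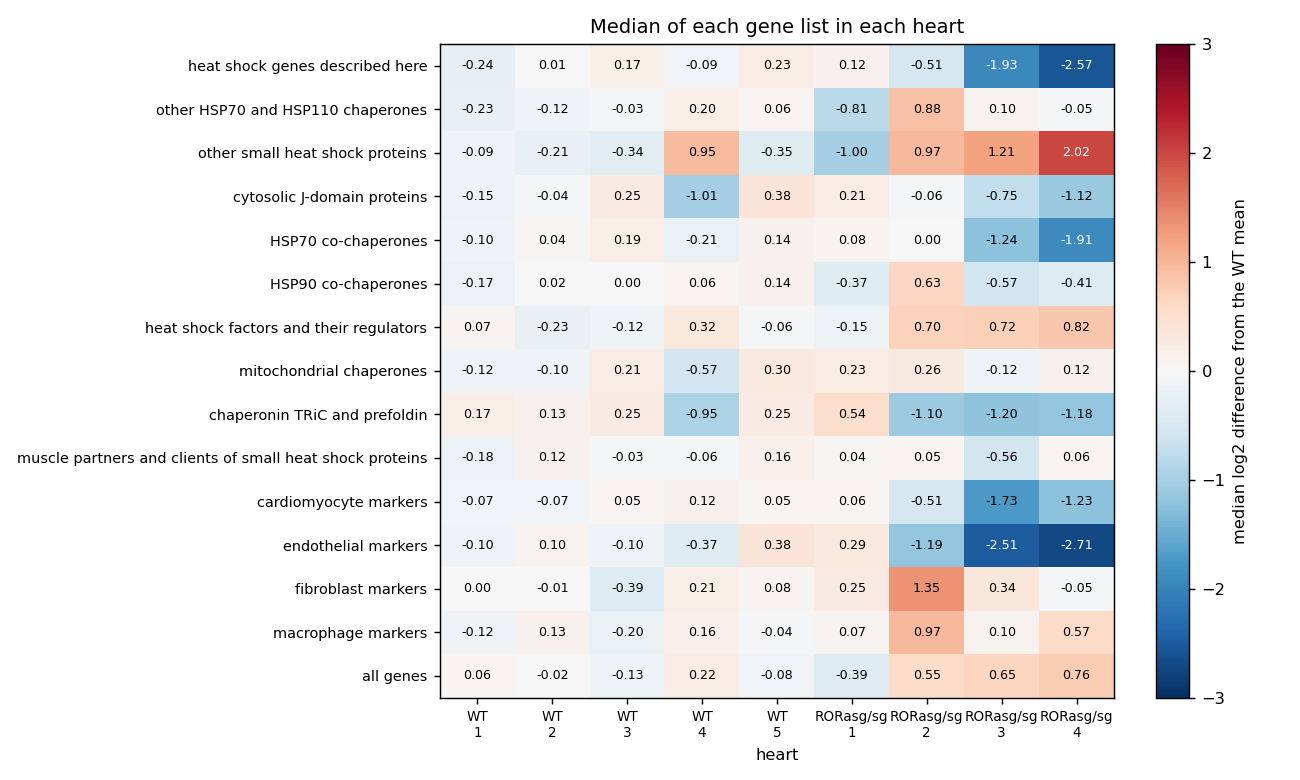
Median log2 difference from the WT mean for each gene list (rows) in each heart (columns). The 10 heat shock genes stand at 0.12, -0.51, -1.93 and -2.57 in RORasg/sg hearts 1 to 4 and all genes at -0.39, 0.55, 0.65 and 0.76. The 2 medians thus go apart in RORasg/sg 2, 3 and 4, and all genes were not matched to the list in signal level.

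Markers of heart cell types were read in the same hearts, and 0 of them passed the test over all 9 hearts. In a whole heart, fewer cells of a type and less RNA per cell cannot be told apart. All 10 cardiomyocyte markers were measured, and their summed signal, in units of the array's 75th percentile, was 840 to 1012 in WT hearts and 930, 996, 492 and 438 in RORasg/sg hearts 1 to 4. The brightest genes weigh most in this sum, with WT means of 7.62 for Mb and 7.58 for Actc1. Ckm, whose probe read low with a WT mean of -3.68, adds little. Of these markers, 1 had a higher and 9 a lower mean (median difference -0.77), and all 10 lay below the median of all genes. At an unadjusted limma p under 0.05, 4 were lower and 0 higher, against 6.62% and 4.94% of all genes. Their median deviation from the WT mean was 0.063, -0.505, -1.73 and -1.23 in RORasg/sg 1 to 4. The single genes differed by very unequal amounts. Myh6, the adult myosin heavy chain, read 6.50, 4.22, 0.65 and 0.10 in RORasg/sg hearts against 4.62 to 6.03 in WT, whereas Mb, myoglobin, read 7.18 to 8.29 against 7.34 to 7.94. Tnnt2, cardiac troponin T, read 5.91 to 7.01 against 5.89 to 6.98. The summed cardiomyocyte markers were thus low in RORasg/sg 3 and 4, where 6 of the 10 heat shock genes were low, and their part in these results was not tested. Without RORasg/sg 1, 5 of the 10 cardiomyocyte markers were called lower and 0 higher, and in the brighter arrays 0 were called.

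Endothelial markers followed a similar course gene by gene but not in their sum. The median deviation of the 8 markers from the WT mean was 0.29, -1.19, -2.51 and -2.71 in RORasg/sg 1 to 4, beside 0.12, -0.51, -1.93 and -2.57 for the 10 heat shock genes. Their median difference was -1.39, with 4 lower and 1 higher at an unadjusted p under 0.05. Flt1 differed by -2.25 (SE 0.596) and Tie1 by -2.84 (SE 1.23), whereas Emcn and Cdh5, at 1.21 and 0.59, went the other way. The summed signal was 27.8 to 46.3 in WT and 25.5 to 67.6 in RORasg/sg hearts. Without RORasg/sg 1, 6 of the 8 were called lower and 1 higher, and in the brighter arrays 0 lower and 1 higher. The part of these markers in the results was not tested.

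For the other cell types, too, the summed signal overlapped between the groups. The 8 fibroblast markers summed to 62.3 to 105 in WT hearts and to 90.9, 225, 146 and 130 in RORasg/sg 1 to 4. Their sum was thus above every WT heart in RORasg/sg 2, 3 and 4, and its part in the results was not tested. The 8 macrophage markers summed to 13.2 to 33.6 in WT and 14.8 to 47.6 in RORasg/sg hearts. For the 7 smooth muscle and pericyte markers the ranges were 60.4 to 132 and 62.1 to 122, and for the 6 adipocyte markers 119 to 251 and 83.5 to 258. Of 6 erythroid markers 4 were measured (24.5 to 57.7 and 27.3 to 65.5), without Hba-a2 and Hbb-bs, and of 7 skeletal muscle markers 6 were measured (13.6 to 17.7 and 11.5 to 17.8), without Actn3. Without RORasg/sg 1, the markers called lower and higher were 1 and 3 of 8 for fibroblasts, 0 and 2 of 8 for macrophages, 2 and 1 of 7 for smooth muscle and pericytes, 0 and 1 of 6 for adipocytes, 1 and 0 of 4 for erythroid cells and 1 and 1 of 6 for skeletal muscle.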

How the data were processed

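Total RNA from 9 hearts of separate mice (5 WT, 4 RORasg/sg) was amplified from 70 ng with the NuGEN Ovation Pico WTA System and labelled with Cy3, per the labels' protocols. Per the file headers, the array design is 014868, its grid build mm9, and Feature Extraction 12.0.0.7 extracted the spots. Version 12 also stands in the submitters' processing notes. The authors' deposited intensity per spot is background-subtracted and not scaled between arrays, and the series' value table holds the same intensity (largest relative difference 0). The medians of its columns ran, for WT 1 to 5, 139, 118, 110, 80.2 and 90.7, and for RORasg/sg 1 to 4, 126, 55.4, 81.1 and 55.2. Spot flags (other values of 0 or 1) were taken as deposited by the authors.

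Here, 758 outlier-flagged spots were dropped and none was saturated. The log2 signal minus each array's 75th percentile was averaged over spots of a probe. A probe was kept if at least 4 of 9 arrays had it well above background, and a gene was read from its kept probe with the highest mean. Accessions were named through RefSeq (GRCm38.p6), which matched 28223 of 41174 probes. Its build differs from the grid build, so it gives names and neighbours only. Promoter sequences are RefSeq's in GRCm38.p6. Groups were compared with limma 3.58.1 in R 4.3.3 (moderated with an intensity trend), with Benjamini-Hochberg adjustment over all genes or all probes and a threshold of 0.05. The intervals are unadjusted. Tests and intervals assume the same variance in both groups, although the SD was larger in RORasg/sg hearts for each gene described. The fit was tested on simulated data in which every array had the spread of the WT hearts. The larger spread of the RORasg/sg hearts was not simulated. Precision is limited by how many arrays there are.

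The genes, lists and tests were chosen with earlier results of these data known. Named are all 10 genes with every probe, Rora, and up to 3 genes of each chaperone list with the smallest p, while genes outside that rule are marked as such. Alternatives were other scalings, normexp (offset 50, on the median spot signal), filters and ways to choose a probe, blocks for slide or replicate number, weights per array, brightness, and leaving out each array. Counts per list under some of these were added after the data were examined.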

Additional observations from a re-analysis of the deposited data

Results flagged for a closer look

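Among 31 groups of 4 or 5 hearts, one for each probe of the 10 genes and each genotype with enough values, 1 heart stood far from the others of its group. It was WT 4 for Hspb8, at 1.83 against 4.06 to 4.88 in the other WT hearts, where the gap made up 0.732 of the group's range. Chance alone marks about 5% of groups under this criterion. WT 4 is the dimmer of the WT arrays.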

How the results depend on the processing

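Of the 10 genes, 8 were called with array weights and 8 without RORasg/sg 1, and 0 under every other alternative, so that leaving out single arrays gave 0 to 8 genes and 0 to 10 probes, the 10 against 11.5% of all probes called lower and 23.5% higher. Array weights called 4631 genes lower and 10499 higher among all genes (16.7% and 37.8%). Over all genes, the 1 call became 2 with quantile normalization, 3 without scaling, 9 with the replicate block, 15130 with array weights and 1189 in the brighter arrays. It became 0 with normexp, when every array had to exceed background, with the mean of a gene's probes, with slide as a block, in the dimmer arrays and within slide 1 or 2, and 0 to 10389 when single arrays were left out (0 without any of WT 1 to 5 or RORasg/sg 2 or 3, and 10389 without RORasg/sg 1). The same-numbered hearts of both groups also lay on the same slide, and whether they are paired in any other way is not known. Their deviations from the group means correlated across genes at 0.046, -0.006, -0.33 and 0.39, which cannot settle this. Under the replicate block 0 of the 10 genes were called. Hspa8 was the gene that kept its sign in all alternatives. Signs turned for Hsp90aa1 (-0.035) and Hsf1 (-0.37) without scaling, for Dnajb1 with the mean of its probes (0.34) and in the dimmer arrays (0.80), for Hsf1 with array weights (-0.065), and with brightness as a covariate for Hsp90aa1 (-0.26), Dnajb1 (0.58) and Hsf1 (-0.093). They turned in the brighter arrays for Hsp90aa1 (-0.81), Hsp90ab1 (0.16), Hspb1 (0.98), Hspb6 (1.10), Hspb7 (0.24), Hspb8 (0.41), Dnajb1 (0.56) and Hsf1 (-0.12). Within slide 1 they turned for Hspb1 (0.34), Hspb6 (0.45), Cryab (0.22, from WT 1 and RORasg/sg 1 alone), Dnajb1 (0.57) and Hsf1 (-0.018). When single arrays were left out, Dnajb1 ran from -0.65 to 0.33 and Hsf1 from -0.26 to 0.43, each turning without RORasg/sg 4. The cause of these changes was not tested.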
